A study of Mus musculus with 8 samples.

Results

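The fragments described here are small RNAs listed under piRNA names in mouse sperm that fell in 2 short stretches of the genome, chr11:96081050-96081220 and chr12:78350880-78351180 (mm10). Each name was placed at its first listed locus, after sorting chromosomes as text and then starts, and names whose first locus lay in either stretch were taken, whatever their level. This gave 652 of the 20210 names of the study: 527 of 13450 in the table that compares MC-LR with a control, 536 of 17375 in the table that compares an shRNA against Hsp90aa1 with a negative-control shRNA, and 411 in both. The chr11 window held 207 of the 527 and 225 of the 536, and the chr12 window held 320 and 311.

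All 8 libraries came from sperm of Balb/c mice at month 8 after birth, and each group had a library A and a library B. The groups were a control and MC-LR (microcystin-LR, a toxin of cyanobacteria that blocks serine/threonine protein phosphatases), and 2 shRNAs, a negative control and 1 against Hsp90aa1, the gene of the stress-inducible cytosolic chaperone HSP90 alpha. Doses, times, the route of the toxin and the delivery of the shRNAs were not given by the labels. Nor do the labels call the libraries separate animals, so a p-value here reflects the spread of libraries alone, part of which may be technical. The tables list small RNA names only, so neither the sperm label nor the level of Hsp90aa1 was checked against messenger RNA.

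piRNAs are germline small RNAs that bind PIWI proteins and guide the silencing of transposable elements, and many begin with U at the 5′ end. Gphn encodes gephyrin, a scaffold of inhibitory synapses that also serves molybdenum cofactor synthesis, and Lars2 encodes the mitochondrial leucyl-tRNA synthetase. The 3′ UTR of mouse Lars2 is known to hold a stretch that resembles large-subunit ribosomal RNA, so names listed there can also collect ribosomal fragments. No ribosomal sequence was used here, and the origin of the reads was not tested.

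Both windows hold copies of the same stretch. In the GENCODE M21 annotation the chr12 window lies at the protein-coding gene Gphn, and the chr11 window lies outside genes. Of the members, 226 of the chr11 window and 210 of the chr12 window were also listed on the plus strand at chr9:123461800-123462068, in the last exon of Lars2, within its 3′ UTR. For every name listed both in a window and in Lars2 (226 and 295 names) the distance to the Lars2 locus was constant, which places both windows in 1 frame. Positions below count from 1 at chr12:78350882, the first base of the chr12 members, which end at position 295. The chr11 members span positions 167 to 328. Further copies carried fewer members than the 436 at Lars2. At chr6:49236464-49236612 there were 256, all of the chr12 window, which is more than its 210 at Lars2. Next came 150 at chr19:40119780-40119820, 138 at chr16:17222344-17222513, 138 at chr7:130834502-130834649 inside Fgfr2, 120 at chrX:73026627-73026688 inside Zfp185 and 94 at chr7:110059743-110059850, at AA474408.

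The sequences of 444 members (230 of the chr11 and 214 of the chr12 window) could be read from GENCODE M21 transcripts, 351 from Lars2 and 93 from AA474408. Of 85 names listed in both transcripts, 84 had the same letters in each and 1 did not, so a listed locus need not match a name letter for letter. The leading fragments of the chr11 window begin at positions 266 or 268 and share the 17 bases of positions 268 to 284, shown in capitals. Those 17 bases occurred in 96 of the 230 chr11 members with a sequence and in 5 of the 214 chr12 members where names listed in both windows count as chr11 members. The first is the most abundant member of the MC-LR table, the next 5 form a ladder from 1 start, and the last starts 2 bases earlier.
piR-mmu-49608565: tgATCCTTCGATGTCGGCT
piR-mmu-36587964: ATCCTTCGATGTCGGCTcttcc
piR-mmu-33733812: ATCCTTCGATGTCGGCTcttcct
piR-mmu-2360702: ATCCTTCGATGTCGGCTcttccta
piR-mmu-12193147: ATCCTTCGATGTCGGCTcttcctat
piR-mmu-3728764: ATCCTTCGATGTCGGCTcttcctatc
piR-mmu-3104793: tgATCCTTCGATGTCGGCTcttcctatc

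They occupy positions 266 to 284, 268 to 289, 268 to 290, 268 to 291, 268 to 292, 268 to 293 and 266 to 293. The next member is the most abundant one of the chr12 window that has a sequence and lies outside that run, at positions 80 to 105.
piR-mmu-10873483: agaaacctcccgtggagcagaagggc

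The last 2 are a pair of names at the same positions, 268 to 294, 1 placed in each window. The capital marks the base at which the letters read for them differ. In these letters the substitution from the chr11 name to the chr12 name is A27G, counted from 1 at the 5′ end. The letters of the chr11 name were taken from Lars2 and those of the chr12 name from AA474408. Letters of the windows themselves were not read, and names that end at position 293 were already listed apart. Whether the copies differ at other bases was thus not tested.
piR-mmu-2115362: atccttcgatgtcggctcttcctatcA
piR-mmu-30258307: atccttcgatgtcggctcttcctatcG

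All members lay on the plus strand and were 17 to 34 nt long, with a median of 27 nt in the MC-LR table in both windows. No other name of either table lay within 100 kb outside the windows. The chr11 members were concentrated on 1 spot: the summed level peaked at position 279, where it reached 20110 of the 20298 RPM summed over the window in control A. The chr12 members, which leave out the names listed in both windows, were spread over 3 humps, with maxima at positions 65, 191 and 270 in both tables. At these positions control A had 1194, 267 and 1516 RPM, and negative-control shRNA A had 805, 147 and 1198 RPM. RPM is the number of reads scaled to a common library total, and reads that fit several loci appear at each, since 206 of 207 and 316 of 320 members of the MC-LR table held the same values at all their loci. Overlapping names may also share reads, so a sum over names may count a read more than once.

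**Figure D1:**
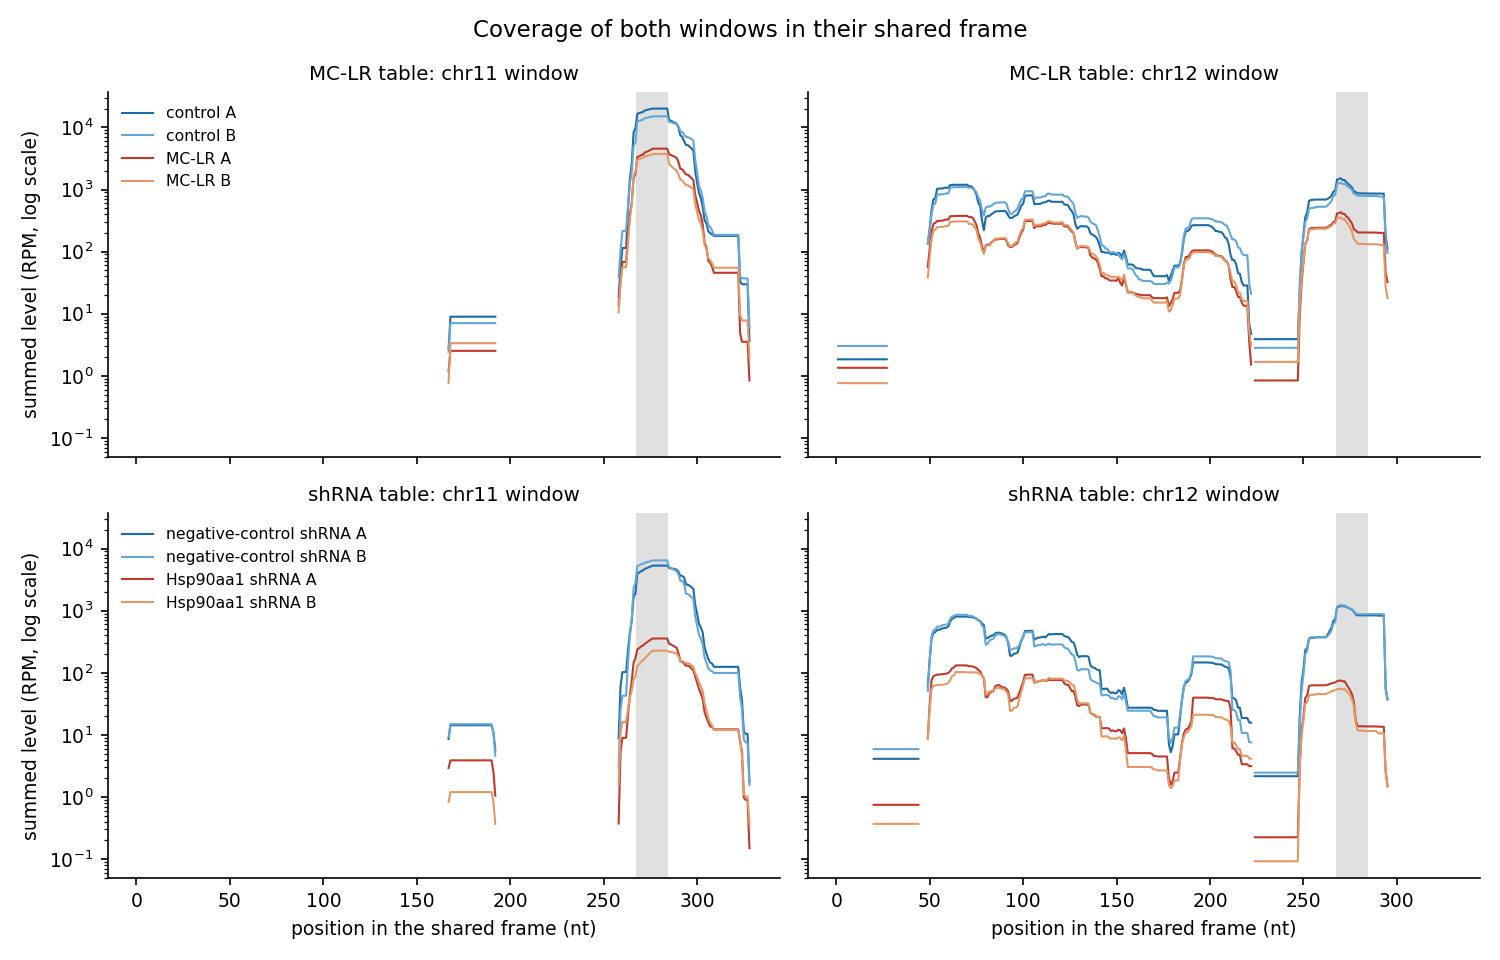
Summed level (RPM, log scale) of the members at each position of the shared frame, for the chr11 window (left) and chr12 window (right) in the MC-LR table (top) and the shRNA table (bottom), with 1 line per library. The grey band marks positions 268 to 284, where the chr11 window has its maximum, and the lines of the treated libraries (red and orange) lie below those of their controls (blue) along both windows.

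Among members with a sequence, the windows also differed in the first base. Of chr11 members with a sequence in the MC-LR table, 105 of 204 (51.5%) began with T (U in RNA), against 18 of 153 (11.8%) of chr12 members, of which 68 (44.4%) began with A. In the shRNA table these shares were 50.5% and 8.93%. The members overlap and share starts, so these counts are not independent. In the MC-LR table letters were read for 204 of 207 chr11 members but for 153 of 320 chr12 members. The 80 names listed in both windows count as chr11 members only. The contrast thus describes the members as placed, and whether the copies differ in this way was not tested.

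80 names were listed in both windows in each table, at positions 258 to 292, and all 80 held the same values in both. They made up 38.6% of the chr11 members of the MC-LR table and 35.6% of those of the shRNA table. Of the chr11 sum they carried 69.3% and 48.5% in control A and B and 56.8% and 64.6% in MC-LR A and B. The shares were 34.4% and 56.3% in the negative-control libraries and 58.0% and 33.0% in the Hsp90aa1 shRNA libraries. By the rule of the first locus all 80 counted as chr11 members. The chr12 window therefore lost much of its own run around position 270: of 433 names with a locus in it in the MC-LR table, 113 were placed elsewhere, 80 of them in the chr11 window. Of 441 such names in the shRNA table, 130 were placed elsewhere, again with 80 in the chr11 window.

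Names that end at position 293 or beyond were listed apart in each window, which allowed a comparison of the copies at equal coordinates. The same 16 pairs of intervals with a chr11 name and a chr12 name were present in both tables. For the 8 pairs that end at position 293, the chr12 name had 99.0% to 99.8% of the reads of its chr11 partner over the 4 libraries of the MC-LR table and 99.5% to 99.8% in the shRNA table. piR-mmu-3728764 had 5520, 1653, 480 and 299 reads in control A, control B, MC-LR A and MC-LR B. Its chr12 partner piR-mmu-4880618 had 5493, 1641, 476 and 299 reads. The partners had nearly equal counts in every library; whether their reads are the same was not tested.

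From the next base on the read counts of the partners separated. For the 5 pairs that end at position 294, the chr12 name had 76.3% to 88.0% of the reads of its partner in the MC-LR table and 58.7% to 85.3% in the shRNA table, and for the 3 pairs that end at position 295 it had 62.4% to 74.5% and 55.0% to 70.7%. The pair whose letters are shown above had 586, 136, 26 and 21 reads for piR-mmu-2115362 and 474, 97, 21 and 16 for piR-mmu-30258307 in the MC-LR table. In each of these 4 libraries the chr11 name had more reads. Both names rest on 3 or fewer reads in each Hsp90aa1 shRNA library, where their ratio is not resolved.

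**Figure D2:**
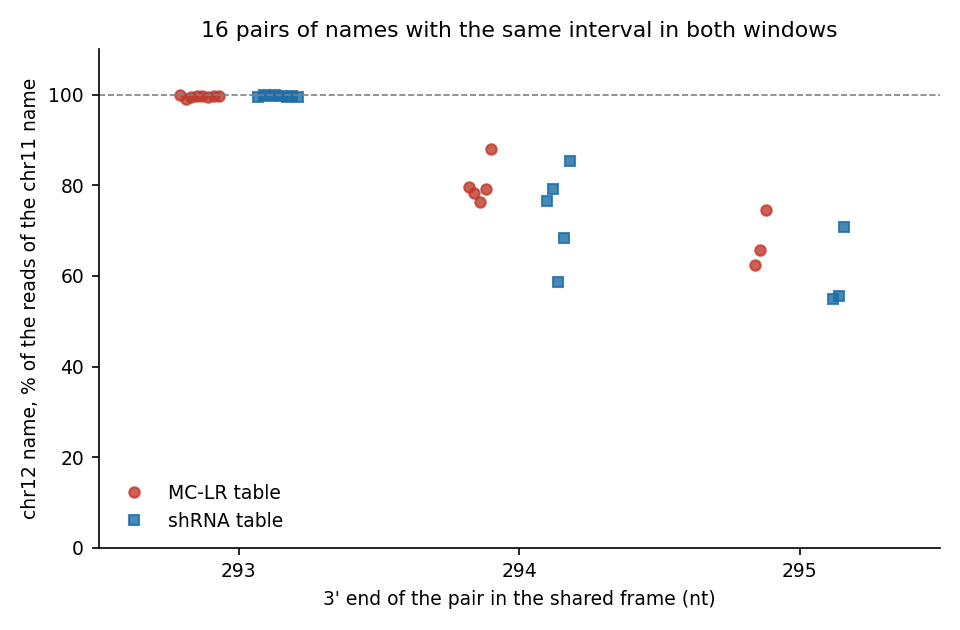
Reads of the chr12 name as a percent of the reads of the chr11 name, summed over the 4 libraries of a table (y axis), for 16 pairs of names with the same interval, by the position of their 3′ end (x axis). Circles are the MC-LR table and squares the shRNA table. All pairs that end at 293 lie at 99.0% or above, and all pairs that end at 294 or 295 lie at 88.0% or below.

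Library totals ranged from 4960467 to 14634370 reads, so 3 reads correspond to 0.205 to 0.605 RPM. Summed over all names of a table, the listed values came to 38.1% and 35.2% of the total in control A and B and 12.5% and 11.7% in MC-LR A and B. In the shRNA table the figures were 27.7% and 32.3% for the negative-control libraries and 4.88% and 3.16% for the Hsp90aa1 libraries. The whole list thus moved against the library totals in both comparisons. Each result below is given per library total and then within the list. In the MC-LR table the groups were apart in 12452 lower and 314 higher of 13450 names. In the shRNA table they were apart in 17337 lower and 37 higher of 17375. Whether names were listed for a difference between groups was not tested, so the calls and shares below hold for the listed names only. In bulk sperm, fewer cells of a type and less RNA per cell cannot be told apart.

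The comparison of MC-LR with the control asked how the toxin relates to sperm small RNAs, and here whether the names placed in each window moved alike. Fragments of both windows were lower under MC-LR per library total. The chr11 members summed to 20298 and 15280.4 RPM in the control libraries, A then B, against 4596 and 3799 RPM in the MC-LR libraries. The group means were 17789 ± 3548 and 4198 ± 564 RPM (SD, n = 2), 4.24-fold lower under MC-LR. The chr12 members summed to 4139 and 4086 RPM in the control and 1377 and 1240.4 RPM under MC-LR, 3.14-fold lower (4112 ± 37.8 against 1309 ± 96.7 RPM, SD, n = 2). With every name that has a locus in the chr12 window counted, its sum was 18753 and 11787 RPM in the control. Under MC-LR it was 4113 and 3833 RPM, 3.84-fold lower. Over names without a more abundant overlapping name (4 in chr11 and 12 in chr12) the order of the windows turned, with chr11 4.61-fold and chr12 4.91-fold lower. The groups did not overlap in either window, and the exact permutation test (two-sided) gave p = 0.333, the smallest that 2 against 2 libraries allow. As a share of the whole list, the chr11 members made up 5.33% and 4.34% in the control and 3.69% and 3.24% under MC-LR. The chr12 members made up 1.09% and 1.16% in the control and 1.10% and 1.06% under MC-LR, where the groups overlapped.

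**Figure D3:**
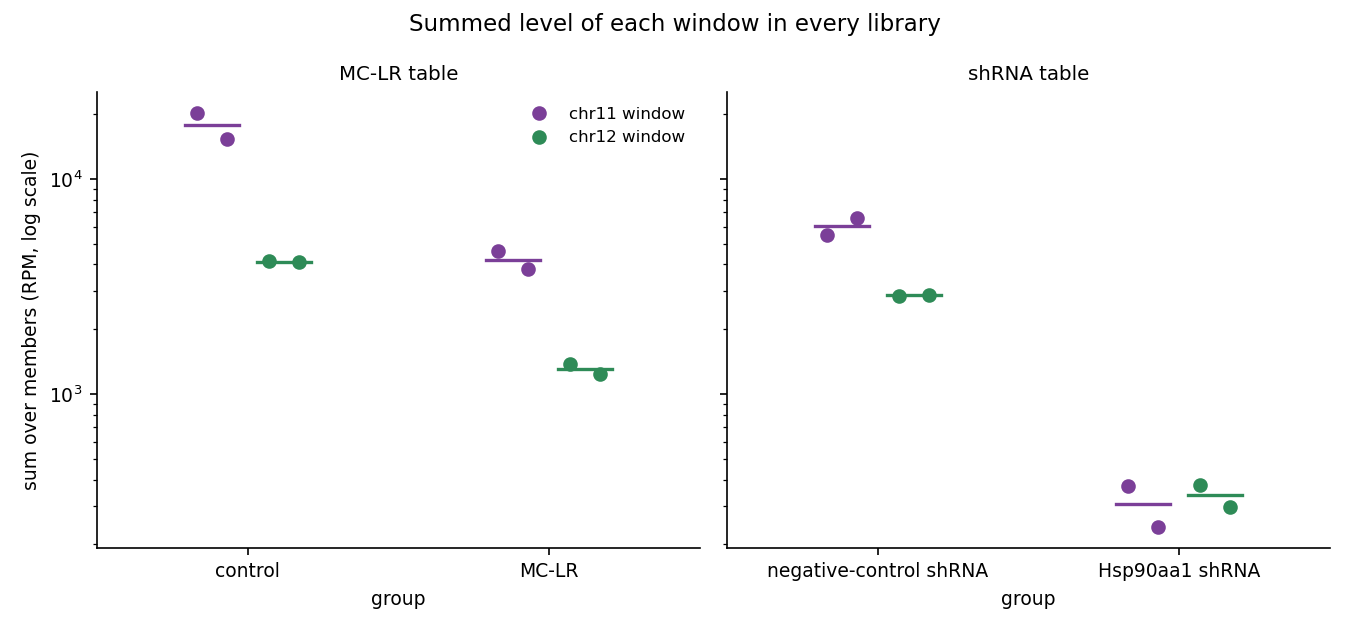
Sum over the members of each window (RPM, log scale) in every library of the MC-LR table (left) and the shRNA table (right). Points are libraries, bars are group means of 2 libraries, purple is the chr11 window and green the chr12 window; the purple points lie above the green ones in all libraries except Hsp90aa1 shRNA A and B (373 and 240.4 RPM against 379 and 298 RPM).

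By limma on log2(RPM + 1), with Benjamini-Hochberg adjustment over all names at 0.05, 386 of the 522 members that passed the filter on low values (73.9%) were lower, against 73.1% of all names tested. The 5 other members did not reach a mean of 1 RPM in either group. No member was higher (0 at an unadjusted p below 0.05, and 0 by edgeR on library totals and by DESeq2), where 2.37% of all names were. In the chr11 window 174 of 206 tested members were lower, with a median log2 fold change of -1.52, and in the chr12 window 212 of 316, with a median of -1.02. The median of all names was -1.17. The groups did not overlap in 491 of the 527 members (92.6% of all names). The share of members called was thus near that of the list. Without MC-LR A 234 members were called lower, and without MC-LR B 185.

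The 4 most abundant chr11 members were all lower. piR-mmu-49608565, the 19 nt fragment at positions 266 to 284, had 4666 and 1788 RPM in the control and 590 and 826 RPM under MC-LR (log2 fold change -2.05 ± 0.452 SE, adjusted p = 0.00377). piR-mmu-58057122, at positions 268 to 298, had 1233 and 1863 RPM against 339 and 256 RPM (-2.36 ± 0.356, adjusted p = 0.000483). piR-mmu-33733812 had 1410 and 910 RPM against 244 and 121 RPM (-2.71 ± 0.412, adjusted p = 0.000548). The groups did not overlap in any of these names, and the control libraries lay farthest apart in the 19 nt fragment. piR-mmu-36587964, 1 base shorter than the last, had 928 and 565 RPM against 268 and 130 RPM (-1.95 ± 0.424, adjusted p = 0.0035). Control A had more of the short fragments and control B more of the long ones: members of 17 to 21 nt made up 43.7% of the chr11 sum in control A and 23.7% in control B, and 29.2% and 44.0% in MC-LR A and B. Fragment length thus differed within groups as much as between them.

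The largest falls among the chr11 members were those of piR-mmu-2360702 (223 and 154 against 20.0 and 11.4 RPM, log2 fold change -3.53), piR-mmu-10823356 (positions 269 to 292, 37.5 and 25.8 against 3.87 and 1.83 RPM, -3.11) and piR-mmu-5563235 (positions 273 to 298, 71.8 and 50.6 against 9.93 and 4.88 RPM, -2.93). The least changed chr11 members were piR-mmu-35812199 (17.7 and 3.02 against 3.87 and 4.27 RPM, adjusted p = 0.222), piR-mmu-38526475 (76.4 and 15.7 against 22.7 and 14.6 RPM, adjusted p = 0.17) and piR-mmu-55829751 (3.48 and 1.81 against 1.51 and 1.37 RPM, adjusted p = 0.167). The first pair of these are 18 nt fragments, at positions 269 to 286 and 272 to 289, and their groups overlapped, with control B near the MC-LR libraries.

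In the chr12 window the leading name was piR-mmu-4880618, the partner of piR-mmu-3728764, with 375 and 331 RPM in the control and 80.1 and 45.6 RPM under MC-LR (-2.52 ± 0.372, adjusted p = 0.000427). piR-mmu-5772378, at positions 266 to 293, had 101 and 103 against 17.7 and 19.7 RPM (-2.39). Outside the run shared with chr11, piR-mmu-10873483 had 136 and 122 RPM against 25.4 and 26.1 RPM (-2.28 ± 0.336, adjusted p = 0.000427). The largest falls of the chr12 window were at another place, in names that begin at position 54. The 5 members with that start summed to 311 and 239 RPM in the control and 22.05 and 23.6 RPM under MC-LR, 12.1-fold lower. Among them piR-mmu-57440140 (positions 54 to 77) had 134 and 112 RPM against 8.75 and 8.99 RPM (-3.65 ± 0.339, adjusted p = 0.000243). piR-mmu-50425605 (positions 54 to 75) had 65.7 and 36.3 RPM against 2.86 and 2.74 RPM (-3.71), and piR-mmu-49019458 (positions 54 to 72) had 17.01 and 7.26 RPM against 0.168 and 0.762 RPM (-3.09). The least changed members of the window were piR-mmu-3508089 (adjusted p = 0.277), piR-mmu-49011163 (0.259) and piR-mmu-55911541 (0.256), all below 8 RPM in every library.

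Scaled within the list, few members remained past the threshold. edgeR with TMM factors called 5 members lower (2.19% of all names) and none higher (12 at an unadjusted p below 0.05), and DESeq2 called 6 lower (3.01% of all names). The 5 were piR-mmu-2360702 (-1.87, adjusted p = 0.0221) and 4 of the names that begin at position 54: piR-mmu-57440140 (-2.09, adjusted p = 0.00478), piR-mmu-50425605 (-2.47, 0.00538), piR-mmu-49019458 (-2.96, 0.0368) and piR-mmu-4439113 (positions 54 to 78, -1.47, 0.0448). The last was singled out after its values were seen, with 68.9 and 62.5 RPM in the control and 7.07 and 7.47 RPM under MC-LR. Over all alternatives the adjusted p of these names ranged up to the value given. The 4 names share a start and may share reads.

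**Figure D4:**
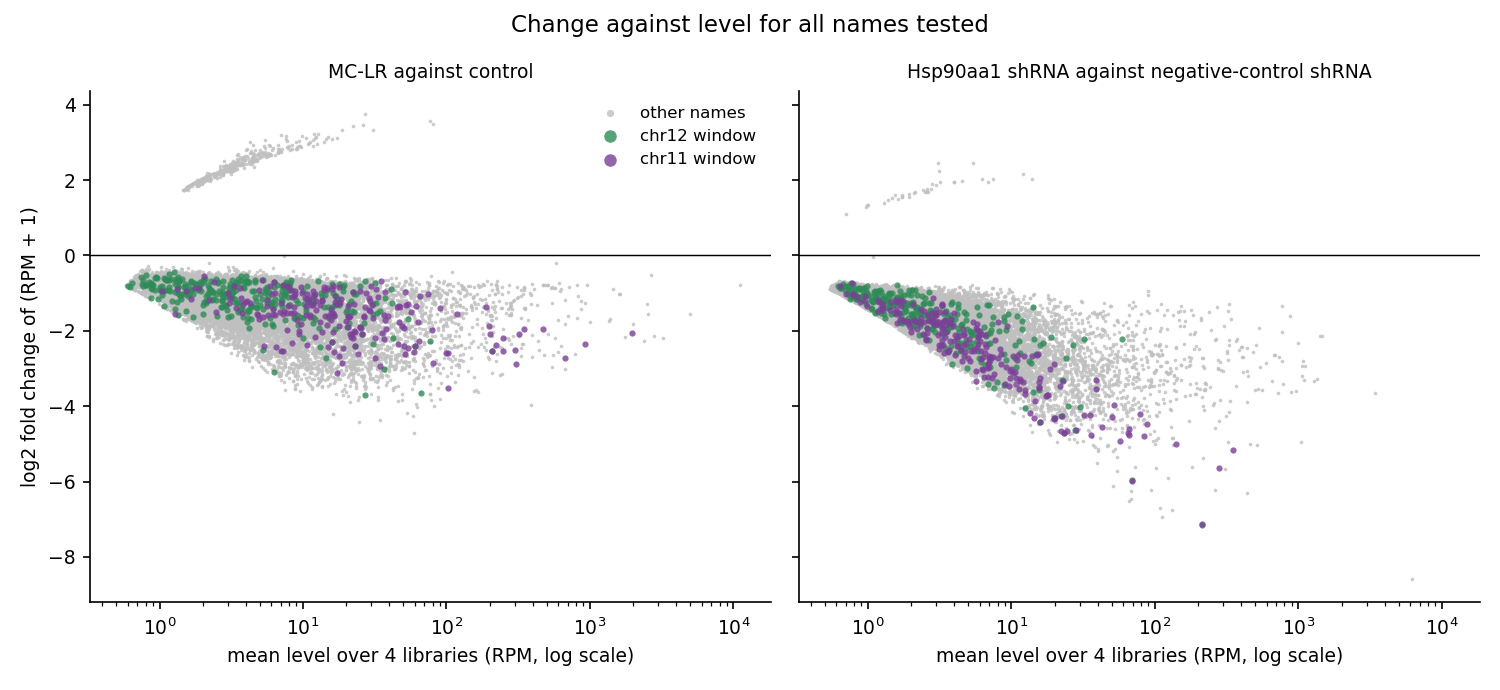
Log2 fold change of (RPM + 1) by limma (y axis) against the mean level over 4 libraries (x axis, RPM, log scale) for all names tested, for MC-LR (left) and the Hsp90aa1 shRNA (right). Grey points are other names, green the chr12 window and purple the chr11 window; all member points lie below 0 in both panels, among the other names.

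The comparison of the Hsp90aa1 shRNA with its negative control asked the same of the chaperone. Here both windows were lower, and the chr11 members by more than the chr12 members. The chr11 members summed to 5469 and 6575 RPM with the negative-control shRNA and to 373 and 240.4 RPM with the Hsp90aa1 shRNA, 19.6-fold lower (6022 ± 782 against 307 ± 93.8 RPM, SD, n = 2). The chr12 members summed to 2854 and 2899 RPM and to 379 and 298 RPM, 8.50-fold lower (2877 ± 31.5 against 338 ± 57.7 RPM). Over every name with a locus in the chr12 window, names also listed in chr11 included, its sum was 4941 and 6864 RPM with the negative control and 631 and 407 RPM with the Hsp90aa1 shRNA, 11.4-fold lower, while the chr11 sum stayed as given. The groups did not overlap (exact permutation test, two-sided, p = 0.333, the smallest possible). As a share of the list the chr11 members made up 1.97% and 2.04% with the negative control and 0.764% and 0.762% with the Hsp90aa1 shRNA. The chr12 members made up 1.03% and 0.899% against 0.776% and 0.943%, and these groups overlapped.

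By limma all 517 members that passed the filter were lower, against 99.5% of all names tested, and the 19 other members stayed under a mean of 1 RPM in both groups. None was higher (0 at an unadjusted p below 0.05, and 0 by edgeR and DESeq2), where 0.219% of all names were. The median log2 fold change was -2.38 over 223 chr11 members and -1.54 over 294 chr12 members, beside -1.66 over all names. The groups did not overlap in any of the 536 members (99.8% of all names). In 148 of the 536 members at least 1 library held fewer than 3 reads, so the size of the change is poorly resolved in the lowest names.

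The 2 largest falls of the chr11 window and the 3 largest of the chr12 window were at fragments that end at position 293, and the next of the chr11 window was piR-mmu-58057122, which ends at 298. piR-mmu-3728764 had 369 and 478 RPM with the negative control and 2.54 and 1.57 RPM with the Hsp90aa1 shRNA (-7.12 ± 0.569, adjusted p = 0.000582), and its chr12 partner piR-mmu-4880618 had 366 and 476 against 2.54 and 1.48 RPM (-7.14). piR-mmu-3104793, which starts 2 bases earlier, had 144 and 129 against 1.12 and 1.20 RPM (-5.99), and its partner piR-mmu-5772378 had 144 and 129 against 1.12 and 1.29 RPM (-5.96). piR-mmu-61348879, the chr12 name at positions 267 to 293, had 46.7 and 44.1 against 1.05 and 0.554 RPM (-4.70). The 10 chr11 members with that end summed to 852 and 908 RPM against 13.7 and 8.77 RPM, 78.3-fold lower, from 15.6% and 13.8% of the window to 3.67% and 3.65%. Under MC-LR the 10 chr11 members with the same end were 4.58-fold lower (848 and 699 against 210 and 128 RPM), close to the 4.24-fold of the whole window.

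The other most abundant members were lower too. piR-mmu-58057122 had 620 and 480 RPM against 7.86 and 12.6 RPM (-5.64 ± 0.607, adjusted p = 0.000582), and piR-mmu-33733812 had 189 and 355 RPM against 11.2 and 4.43 RPM (-5.00). piR-mmu-49608565 had 314 and 1034 RPM against 36.6 and 5.82 RPM (-5.16 ± 0.906, adjusted p = 0.000891), so this 19 nt fragment varied more between libraries of a group than any other abundant member named here. piR-mmu-36587964 had 116 and 218 against 13.3 and 2.68 RPM (-4.46). At the 5′ part of the chr12 window, piR-mmu-10894671 (positions 51 to 79) had 98.1 and 95.7 RPM against 21.8 and 18.6 RPM (-2.21 ± 0.565, adjusted p = 0.00412) and piR-mmu-2026310 (positions 50 to 79) had 59.2 and 47.0 against 9.88 and 11.4 RPM (-2.21). These were the most abundant names of the chr12 window in this table beside the ones that end at 293.

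The least changed members still passed the threshold. In the chr11 window they were piR-mmu-67675437 (-1.76, adjusted p = 0.0149), piR-mmu-51708593 (-1.28, 0.0133) and piR-mmu-67676981 (-1.43, 0.0102), all of 32 or 33 nt. In the chr12 window they were piR-mmu-52832296 (-1.16, 0.026), piR-mmu-55795133 (-0.78, 0.0239) and piR-mmu-58260331 (-1.37, 0.0216). Scaled within the list, 4 of the 517 members were lower by edgeR with TMM factors (0.089% of all names, 15 in number) and none was higher (12 at an unadjusted p below 0.05). They were piR-mmu-3728764 (-4.86, adjusted p = 0.00785), piR-mmu-4880618 (-4.89, 0.00785), piR-mmu-3104793 (-4.01, 0.0279) and piR-mmu-5772378 (-3.94, 0.0318), which are 2 pairs of partners with nearly equal counts, at 2 intervals. DESeq2 called 22 members lower (0.724% of all names), and the adjusted p of these 4 names under the other alternatives was at most the value given. No name that begins at position 54 was among the 22. Per library total, piR-mmu-57440140 was still 25.6-fold lower (13.8 and 20.6 against 0.973 and 0.369 RPM). For piR-mmu-4439113 it was 27.6-fold (8.75 and 10.3 against 0.599 and 0.0923 RPM), beside 8.50-fold for the chr12 sum. By edgeR with TMM factors they changed by -1.87 (adjusted p = 0.412) and -1.94 (0.428), beside -2.09 and -1.47 under MC-LR. They rest on 13 and 4 and on 8 and 1 reads in Hsp90aa1 shRNA A and B.

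The ladder that starts at position 268 sets the 3′ end apart from the start. All 16 of its chr11 members, with ends from 285 to 300, were lower in both comparisons. Under MC-LR the fold was between 2.79 (end 286) and 12 (end 291, piR-mmu-2360702), with 7.24 for piR-mmu-12193147 (610 and 469 against 92.9 and 56.1 RPM). With the Hsp90aa1 shRNA piR-mmu-3728764 at end 293 was 206-fold lower, while piR-mmu-12193147, 1 base shorter, was 38.2-fold lower (87.2 and 135 against 4.34 and 1.48 RPM). piR-mmu-2360702 was 53.9-fold lower in that comparison (20.4 and 32.7 against 0.524 and 0.462 RPM). In both negative-control libraries the fragment that ends at 293 was above the one that ends at 290 (369 and 478 against 189 and 355 RPM), and in both Hsp90aa1 shRNA libraries it was below it (2.54 and 1.57 against 11.2 and 4.43 RPM). Ends 291 and 294 were low next to their neighbours in all 8 libraries.

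**Figure D5:**
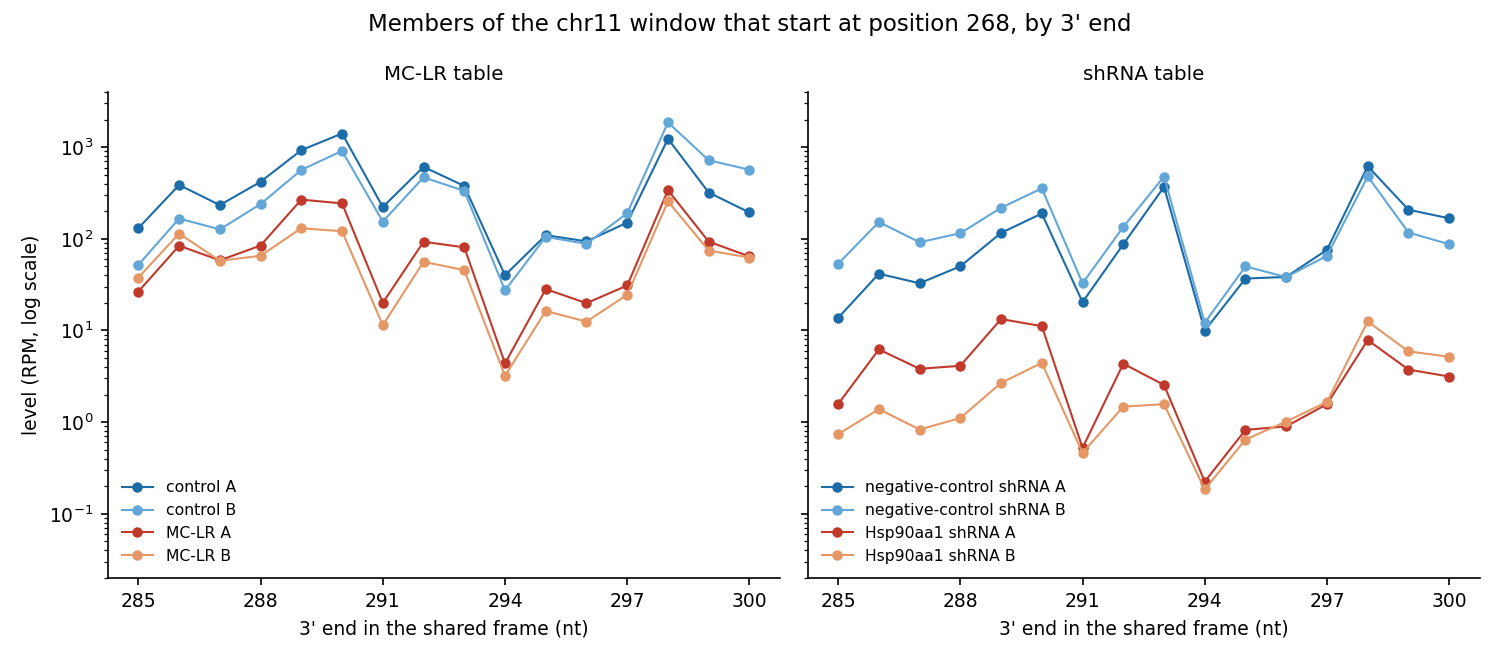
Level (RPM, log scale) of the 16 chr11 members that start at position 268, by the position of their 3′ end, in the MC-LR table (left) and the shRNA table (right), with 1 line per library. In the shRNA table the point at 293 stands at 369 and 478 RPM in the negative-control libraries and at 2.54 and 1.57 RPM in the Hsp90aa1 shRNA libraries, and in both tables the lines dip at 291 and 294.

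The ratio of the windows within a library removes the scale of the library. Summed chr11 members were 4.90 and 3.74 times the chr12 members in control A and B and 3.34 and 3.06 times under MC-LR, a log2 change of -0.43. With the negative-control shRNA the ratio was 1.92 and 2.27 and with the Hsp90aa1 shRNA 0.984 and 0.808, a log2 change of -1.22. The groups did not overlap in either comparison, and each exact permutation test (two-sided) gave p = 0.333, the smallest it allows. Without the 16 pairs of equal interval the changes were -0.55 and -1.51. Over the 411 names that were members in both tables they were -0.43 and -0.89, and the ratio was then 2.60 and 3.17 with the negative control and 1.71 and 1.41 with the Hsp90aa1 shRNA. The ratio also rests on the placing of the shared names in chr11. With every name counted in each window where it has a locus, it was 1.08 and 1.30 in the control and 1.12 and 0.991 under MC-LR, where the groups overlapped (log2 change -0.17, exact permutation p = 0.667). In the shRNA table it was 1.11 and 0.958 in the negative-control libraries against 0.591 and 0.590 in the Hsp90aa1 libraries, which did not overlap (-0.80, exact permutation p = 0.333). The difference between the comparisons was not tested, as the tables were listed and scaled apart.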

How the data were processed

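Small RNA of 8 sperm libraries was compared within 2 deposited tables of 4 libraries. The authors deposited RPM values per name and locus, with each library kept apart. Bowtie2 2.2.3, HISAT2 2.1.0, HTSeq 0.6.0 and the build mm10 are listed in the submitters' processing notes, with no role given. Neither the total behind the RPM nor the rule for listing loci is given in the sources used here. The RPM values were whole multiples of 1 read in 100% of cases within 0.01 read, from which reads and totals were recovered. File starts count from 0 and were moved to count from 1.

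Members and lists were chosen with earlier results of these data known. Names to print were, in each window and table, the 4 most abundant, the 3 with the largest falls and rises among calls whose groups were apart, the 3 with the largest p, up to 6 abundant names of both tables and names of equal interval. piR-mmu-12193147 and piR-mmu-4439113 were added after their values were seen, as were piR-mmu-2360702, piR-mmu-57440140 and the ladder in the shRNA table.

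Each table was fitted alone with limma 3.58.1 (trend, robust) in R 4.3.3 on log2(RPM + 1), which understates changes of low names and kept names that averaged 1 RPM or more in either group (13271 and 16857 names), with Benjamini-Hochberg adjustment at 0.05. The quasi-likelihood test of edgeR 4.0.16 was run on the recovered reads, where library totals as offsets gave 10002 lower and 314 higher names for MC-LR and 16699 and 37 for the shRNA. DESeq2 1.42.0 was run on the same reads. The code was tested on simulated data. Other pseudocounts, filters, scalings, loci, a replicate block and leaving out each library were tried. Sums used an exact permutation test in scipy 1.17.1. Sequences were read from GENCODE M21 transcripts by coordinate.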

Additional observations from a re-analysis of the deposited data

How the results depend on the processing

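Per library total, direction held: no setting that kept that scale called any member higher or turned the sign of a window sum. A pseudocount of 0.1 or 5, no filter, the locus with the highest mean and edgeR on library totals kept the counts of members lower within 1.5 times of 386 and 517. Requiring a mean of at least 5 RPM in a group left fewer names to test, with 137 chr12 members lower under MC-LR and 286 members (125 in chr12) with the shRNA. Scaling within the list ended most calls. Under MC-LR, limma centred on the median called 14 members lower (9 chr11, 5 chr12), edgeR with TMM factors 5 (1 and 4) and DESeq2 6 (2 and 4). With the shRNA these counts were 18 (12 and 6), 4 (2 and 2) and 22 (15 and 7). At an unadjusted p below 0.05, median-centred limma had 86 members higher with the shRNA (9 chr11, 77 chr12) and 104 lower (80 and 24). The median log2 fold change of the chr12 members was then 0.296 and that of the chr11 members -0.539, beside 0.173 over all names. The leading names kept their sign in the same order of settings but passed no threshold for piR-mmu-49608565 (-0.76, -0.46 and -0.49 under MC-LR, -3.32, -2.31 and -2.29 with the shRNA) and for piR-mmu-4880618 under MC-LR (-1.24, -0.78 and -0.80).

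As a share of the list, the log2 change of the chr11 sum was -0.48 under MC-LR and -1.39 with the shRNA, and that of the chr12 sum -0.055 and -0.17. Summed over every name with a locus in the window, the chr12 change was -1.94 and -3.51. Summed over names without a more abundant overlapping name, it was -2.29 and -3.85, and the chr11 change was -2.20 and -4.85. Among alternatives added after the data were seen, the ratio of the windows changed by -1.51 with the shRNA without the 16 pairs, and by -0.17 under MC-LR and -0.80 with the shRNA over every name with a locus in each window.

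Leaving out 1 library in turn gave 185 to 425 members lower under MC-LR (92 to 186 in chr11, 88 to 252 in chr12) and 465 to 509 with the shRNA (210 to 221 and 246 to 288). The chr11 sum then changed by -2.27 to -1.86 and -4.65 to -4.01, the chr12 sum by -1.73 to -1.58 and -3.27 to -2.92, and the ratio by -0.62 to -0.23 and -1.37 to -1.09. The leading names ranged from -2.74 to -1.36 and -6.39 to -3.92 in chr11 and from -2.92 to -2.12 and -7.40 to -6.88 in chr12. Of the least changed MC-LR members, piR-mmu-35812199 ranged from -1.88 to 0.33, piR-mmu-38526475 from -2.01 to 0.20, piR-mmu-49011163 from -1.52 to 0.28 and piR-mmu-55911541 from -1.47 to 0.24. With the replicate block by letter, 389 members were lower under MC-LR and 510 with the shRNA. Over all names tested, the difference of A and B in one group correlated with that in the other at 0.0652 in the MC-LR table and -0.608 in the shRNA table. Same-lettered libraries of the shRNA table thus tended to deviate in opposite directions. With the letters crossed, added after the data were seen, 517 members were lower with the shRNA.

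Some of the named members turned above 0 within the list, in the order median-centred limma, edgeR with TMM factors and DESeq2. Under MC-LR these were piR-mmu-3508089 (0.86, 0.69, 0.73), piR-mmu-35812199 (0.51, 0.33, 0.34), piR-mmu-38526475 (0.38, 0.42, 0.41), piR-mmu-49011163 (0.66, 0.34, 0.37), piR-mmu-55829751 (0.74, 0.78, 0.78) and piR-mmu-55911541 (0.67, 0.68, 0.61). With the shRNA these were piR-mmu-51708593 (0.56, 1.21, 1.34), piR-mmu-55795133 (1.06, 1.52, 1.61), piR-mmu-58260331 (0.47, 1.43, 1.52), piR-mmu-67675437 (0.080, 0.71, 0.82) and piR-mmu-67676981 (0.41, 0.77, 0.90). piR-mmu-52832296 turned with the first only (0.68), and piR-mmu-10894671 (0.60, 0.67) and piR-mmu-2026310 (0.57, 0.66) with the last 2. The cause of these differences between settings was not tested. At least 1 library held fewer than 3 reads in 65 members under MC-LR and 148 with the shRNA, where depth limits the size of a change.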
